A study of Homo sapiens with 12 samples.

Results

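The genes described here are SLC2A1, SLC2A3, SLC2A4, SLC2A5, SLC2A6, SLC2A8, SLC2A10, SLC2A12 and SLC2A13, members of the family of facilitative sugar transporters known as GLUT proteins. They are 9 of the 19775 genes read on the arrays, and every probe set that the platform annotation gives to 1 of them alone was taken, which made 21 of 54675 probe sets. SLC2A3 was chosen by its measured spheroid to parental differences, which ran in opposite directions in culture and in tumours, so its values are described and not tested. The other 8 genes were tested in each comparison.

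The study used 12 Affymetrix HG-U133 Plus 2.0 arrays, 3 for each of 4 groups. All RNA came from NCI-H1299, a long-established line from a human non-small cell lung carcinoma. Parental cells were cultured in medium containing serum. Spheroid cells, which the design text calls cancer stem cells, came from the same line kept in a stem-cell medium, where the cells found floating after 7 to 10 days were moved to flasks with a surface that cells hardly attach to. Parental xenografts and spheroid xenografts are tumours grown from these respective cells. No sample carried a genetic change or a drug by the labels, so medium and form of culture differ together between parental and spheroid cells. The host strain, the tumour site and the number of animals are not stated in the sources used here. The p-values compare differences of group means with the spread of these 12 samples within groups. The sample titles call all 12 samples biological replicates. With the number of animals unknown, whether each xenograft sample came from an animal of its own cannot be told.

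GLUT proteins let sugars pass the membrane down their concentration gradient, and hexokinases then trap glucose inside the cell by phosphorylation. SLC2A1, SLC2A3 and SLC2A4 (GLUT1, GLUT3 and GLUT4) are the classical glucose carriers: GLUT1 provides basal uptake in most cells and is raised in many carcinomas, GLUT3 has a high affinity and is best known from neurons, and GLUT4 moves to the surface of muscle and fat cells in response to insulin. SLC2A5 is a fructose carrier, SLC2A13 carries myo-inositol together with protons, and SLC2A6 and SLC2A8 lie largely on membranes inside the cell.

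The values are on a log2 scale, so that a difference of 1 is a doubling of signal, and levels were compared only between groups within a probe set. Array medians ran from 5.85 to 6.03 and lower quartiles from 4.63 to 4.80, and a probe set under the lower quartile of its array is called dim here. The interquartile range of an array ran from 2.82 to 3.44. Both ends of that range were parental culture arrays, replicate 1 and replicate 2. Parental culture replicate 1 also had the largest gap between the 3′ and 5′ probe sets of GAPDH, 0.49 against 0.019 to 0.13 on the other 11 arrays. The same gap of beta-actin was 0.78 on that array, 0.77 on spheroid culture replicate 1, 0.64 on spheroid xenograft replicate 3 and 0.18 to 0.38 on the rest. Over all probe sets 9 of 12 arrays correlated best with an array of their own group. The exceptions were parental culture replicate 2 and spheroid culture replicate 1, each closest to a parental xenograft array, and parental xenograft replicate 3, closest to spheroid xenograft replicate 3. Of the markers of the line, VIM (vimentin) lay between 13.55 and 14.70 and KRT18 (a simple epithelial keratin) between 10.28 and 13.01, whereas EPCAM (an epithelial adhesion molecule) was dim on all 12 arrays.

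SLC2A3 was high in spheroid culture and in parental xenografts, and low in parental culture and in spheroid xenografts. The probe set that stands for the gene, 202497_x_at, read 8.98, 10.14 and 9.28 in parental culture, 11.33, 10.65 and 10.20 in spheroid culture, 11.29, 11.04 and 10.21 in parental xenografts, and 8.90, 8.99 and 9.09 in spheroid xenografts. The group means were 9.47 ± 0.61, 10.73 ± 0.57, 10.85 ± 0.57 and 8.99 ± 0.096 (SD, n = 3). In order of level, parental xenografts and spheroid culture lay within each other's spread at the top. At the bottom, parental culture replicate 1 lay among the spheroid xenograft arrays, and the other two parental culture arrays lay above all of them. The lowest array of the upper pair of groups, 10.20, lay just above the highest of the lower pair, 10.14, which was parental culture replicate 2.

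Spheroid cells stood above parental cells in culture by 1.26 (standard error, SE, 0.36), a ratio of 2.40, and below them in xenografts, with a difference of -1.86 (SE 0.36), a ratio of 3.62 in the other direction. These are the values by which the gene was chosen. Seen from the other side, parental cells stood 1.38 higher as tumours than in culture, and in spheroid cells the difference was -1.74. Subtracting the culture difference from the xenograft difference gave -3.12 (SE 0.50). In bulk samples such as these, fewer cells of a type and less RNA per cell cannot be told apart, which holds for every xenograft value below as well.

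The remaining probe sets of SLC2A3 showed the xenograft difference in full and the culture difference less clearly. On 202498_s_at the arrays read 6.91, 9.27 and 7.41 in parental culture, 9.05, 8.76 and 8.44 in spheroid culture, 9.47, 9.05 and 8.64 in parental xenografts, and 6.56, 6.80 and 7.71 in spheroid xenografts. On 202499_s_at they read 8.18, 9.36 and 7.92, then 9.58, 8.98 and 8.65, then 9.92, 9.77 and 8.95, then 7.28, 7.22 and 8.31, in the same order of groups. The xenograft groups lay apart on both, with differences of -2.03 and -1.94. The culture groups overlapped on both because parental culture replicate 2 lay within or above the spheroid arrays, and the culture differences were 0.89 and 0.58. Without that array the culture difference was 1.60 on 202497_x_at, 1.59 on 202498_s_at and 1.02 on 202499_s_at, and without parental culture replicate 1 it was 1.02, 0.41 and 0.43. Spheroid culture replicate 1 held the highest SLC2A3 value of all 12 arrays on 202497_x_at and a wide beta-actin gap. Without it the culture difference was 0.96, 0.74 and 0.33. The gene was chosen by the direction of this difference, so these values are descriptions and lend it no support. The part of RNA quality in these values was not tested.

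Another 2 probe sets, 216236_s_at and 222088_s_at, are annotated to both SLC2A3 and SLC2A14 and were kept apart from the members. SLC2A14 encodes a closely related transporter and lies beside SLC2A3 on chromosome 12, with only the pseudogene NANOGP1 between them in the RefSeq annotation. The letters s and x at the end of a name mark probe sets that can read more than 1 transcript, and all 3 SLC2A3 probe sets carry them, so signal from SLC2A14 cannot be told apart here. Probe set 216236_s_at gave a spheroid to parental difference of 1.51 in culture and -1.94 in xenografts, and 222088_s_at gave 0.87 and -1.69. All 5 probe sets thus had positive differences in culture and negative ones in xenografts.

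**Figure D1:**
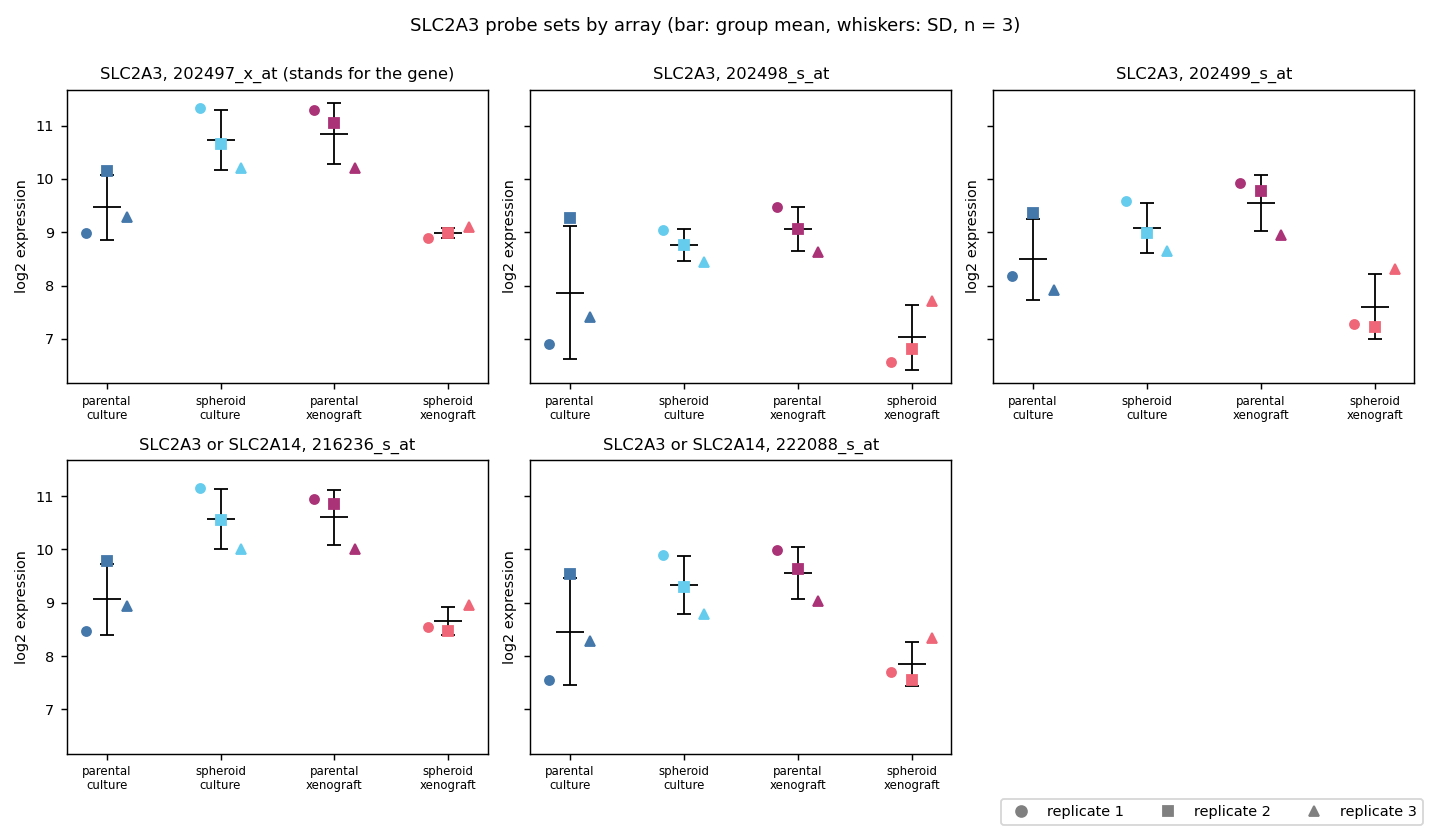
Log2 expression on each of the 12 arrays for the 3 probe sets of SLC2A3 and the 2 shared with SLC2A14, by group; symbols mark replicates, bars the group mean and whiskers the SD (n = 3). Spheroid xenograft arrays lie below parental xenograft arrays in every panel, and parental culture replicate 2 lies above the spheroid culture arrays on 202498_s_at, where it reads 9.27.

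SLC2A1 was the only tested member that passed the threshold, in parental cells only, where xenografts were higher than culture. Its probe set 201250_s_at read 7.34, 7.67 and 7.86 in parental culture, 8.05, 7.96 and 7.69 in spheroid culture, 8.13, 8.36 and 8.51 in parental xenografts, and 8.02, 7.998 and 8.17 in spheroid xenografts. The means were 7.62 ± 0.26, 7.90 ± 0.19, 8.34 ± 0.19 and 8.06 ± 0.094 (SD, n = 3). All 3 parental xenograft arrays lay above all 3 parental culture arrays, while groups next to each other in order of level overlapped.

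In parental cells SLC2A1 rose by 0.71 from culture to xenograft (SE 0.17, 95% interval 0.34 to 1.09, limma adjusted p = 0.0420), a ratio of 1.64. In spheroid cells the same difference was 0.16 (95% interval -0.21 to 0.53, limma adjusted p = 0.908). Spheroid minus parental was 0.28 in culture and -0.28 in xenografts, with limma adjusted p of 0.544 and 0.927. The difference between the 2 differences was -0.55 (SE 0.24, limma adjusted p = 0.633), so the smaller value in spheroid cells was not shown to differ from that in parental cells.

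The SLC2A1 call was a narrow one. It held in 8 of 24 alternative settings, and among the 12 that leave out 1 array each it held only without replicate 2 of parental culture or without replicate 1 or 3 of spheroid culture. In the other 9 of these the limma adjusted p reached at most 0.137, and the difference stayed between 0.57 and 0.83 over all 12. The second probe set of the gene, 201249_at, was dim on all 12 arrays, between 4.05 and 4.70, and gave a difference of -0.077.

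The 250 bases before the start site of SLC2A1 are shown because it was the member that passed the threshold, and those of SLC2A6, described next, because it had the largest difference among the tested members. Sequences come from RefSeq on GRCh38.p14, which held entries for 7 of the 9 members. Both lie on the minus strand, at chr1:42958869-42959118 and chr9:133479100-133479349, and are written 5′ to 3′ toward the gene. Capitals mark ACGTG or GCGTG on either strand, the core letters that hypoxia-inducible factors bind.
SLC2A1: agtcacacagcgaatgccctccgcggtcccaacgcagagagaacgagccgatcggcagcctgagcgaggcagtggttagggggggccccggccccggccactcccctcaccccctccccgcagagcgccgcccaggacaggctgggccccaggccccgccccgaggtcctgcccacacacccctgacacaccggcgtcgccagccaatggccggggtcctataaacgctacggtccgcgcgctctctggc
SLC2A6: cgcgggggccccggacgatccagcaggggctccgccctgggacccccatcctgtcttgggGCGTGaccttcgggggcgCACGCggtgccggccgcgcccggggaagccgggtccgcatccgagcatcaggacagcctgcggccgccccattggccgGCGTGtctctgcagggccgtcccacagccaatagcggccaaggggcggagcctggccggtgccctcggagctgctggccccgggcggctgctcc
The stretch for SLC2A1 held no match, and its nearest match, GCGTG, lay 26 bases past the start site. The stretch for SLC2A6 held 3 matches, all GCGTG, of which 1 is on the opposite strand. Among 35116 RefSeq promoter windows, 43.2% held a match to either motif in the same 250 bases (18.5% ACGTG, 32.2% GCGTG), and a match is a description of letters, not of binding.

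SLC2A6, read by the single probe set 220091_at, had its highest values in spheroid xenografts. The arrays read 7.94, 6.89 and 7.21 in parental culture, 7.21, 7.22 and 7.71 in spheroid culture, 7.78, 8.03 and 7.57 in parental xenografts, and 8.03, 8.13 and 8.32 in spheroid xenografts. The means were 7.35 ± 0.54, 7.38 ± 0.29, 7.79 ± 0.23 and 8.16 ± 0.15 (SD, n = 3). In spheroid cells the xenograft and culture arrays did not overlap and the difference was 0.78 (SE 0.25, 95% interval 0.24 to 1.32), yet it missed the threshold (limma adjusted p = 0.403). Between these groups same-numbered arrays deviated from their group means together (r = 0.33 to 0.43 for the 3 pairs), and the differences within pairs were 0.82, 0.91 and 0.61. With the replicate number as a block and only these 6 arrays fitted, SLC2A6 passed (limma adjusted p = 0.0223), as did 2.99% of all genes. With the block fitted to all 12 arrays it did not pass (limma adjusted p = 0.460), nor did it with the 6 arrays and no block (0.108). In both groups replicate 3 was also the array with the widest spread of values, and with that spread as a covariate the limma adjusted p was 0.116. In parental cells the difference was 0.45 (limma adjusted p = 0.498), and the groups overlapped through parental culture replicate 1.

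SLC2A13, the proton-coupled inositol carrier, varied most between arrays of a group among the tested members. Probe set 227176_at read 8.59, 9.91 and 9.36 in parental culture, 8.83, 8.63 and 8.48 in spheroid culture, 8.58, 8.91 and 9.52 in parental xenografts, and 8.11, 8.60 and 9.06 in spheroid xenografts. The spheroid to parental difference was -0.64 in culture (SE 0.34, 95% interval -1.38 to 0.10, limma adjusted p = 0.454) and -0.41 in xenografts (limma adjusted p = 1.00), and the groups overlapped in both. The array with the widest spread of values held the highest SLC2A13 reading of its group in parental culture (replicate 2), parental xenografts (replicate 3) and spheroid xenografts (replicate 3), but the lowest in spheroid culture (replicate 3). The same 3 arrays were highest on 1552695_a_at, at 7.14, 6.77 and 6.05. Without parental culture replicate 2 the culture difference was -0.33 and without replicate 1 it was -0.99. The part of array spread in these values was not tested.

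**Figure D2:**
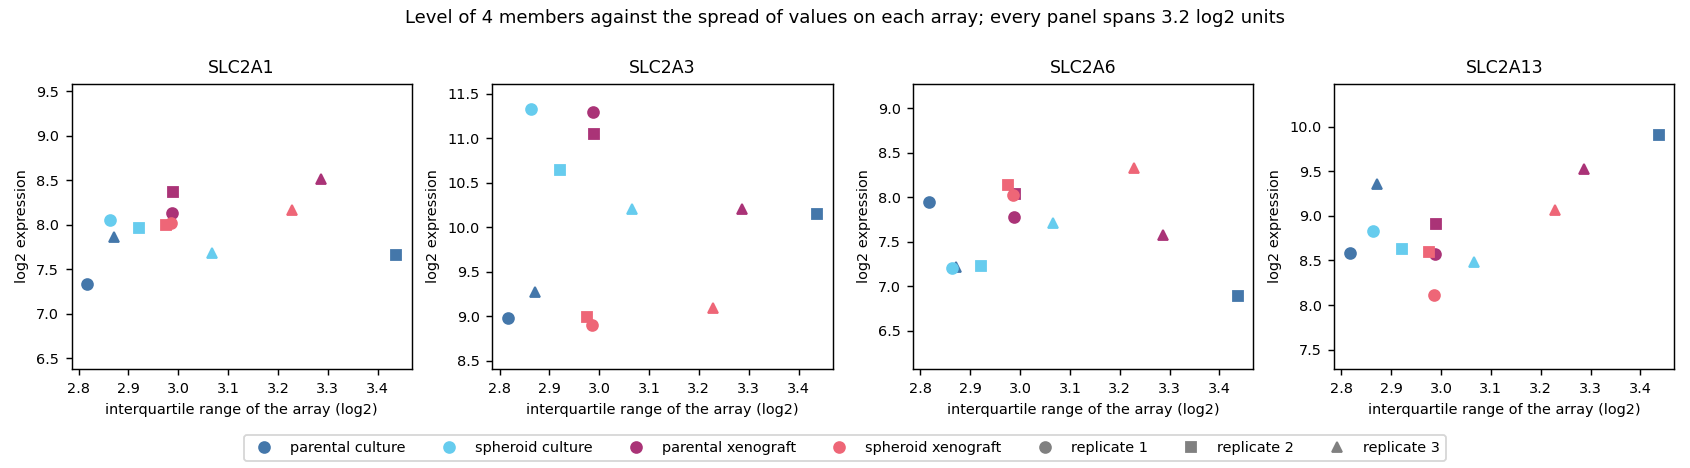
Log2 expression of SLC2A1, SLC2A3, SLC2A6 and SLC2A13 (vertical axes, each spanning the same range) against the interquartile range of each array (horizontal axis); colours mark groups and symbols replicates. Parental culture replicate 2, the widest array at 3.44, holds the highest SLC2A13 value, 9.91, and the lowest SLC2A6 value, 6.89.

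The fructose carrier SLC2A5 was read by 4 probe sets, and the group means of the brightest, 230705_at, lay between 6.03 and 6.35. On 230705_at the array values ran from 5.70 to 6.57 and all groups overlapped. On 242525_at spheroid xenografts (5.62 to 5.69) lay above parental xenografts (5.26 to 5.60), a difference of 0.18 that was not called. Between the xenograft groups 16.5% of all genes did not overlap. SLC2A8, an intracellular carrier, was steady on 218985_at, with all 12 arrays between 6.85 and 7.37. Its second probe set, 239426_at, read 4.75 ± 0.19 in parental culture and 5.12 ± 0.089 in spheroid culture (SD, n = 3). Those groups did not overlap, which held for 13.8% of all genes in culture. The difference of 0.37 missed the threshold (limma adjusted p = 0.268 over probe sets).

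The insulin-responsive carrier SLC2A4 was dim on 11 of 12 arrays, between 4.45 and 5.10, and SLC2A10, the gene altered in arterial tortuosity syndrome, was dim on all 12, between 3.77 and 4.16. SLC2A12 was dim on all 12 arrays on 235050_at, and on 244353_s_at it lay between 5.02 and 6.07. At such signals a difference between groups may not have been detectable. The remaining 3 probe sets of SLC2A13 were dim on 7 to 11 of the 12 arrays. On 234561_at spheroid xenografts lay below parental xenografts, with a difference of -0.23 that was not called.

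**Figure D3:**
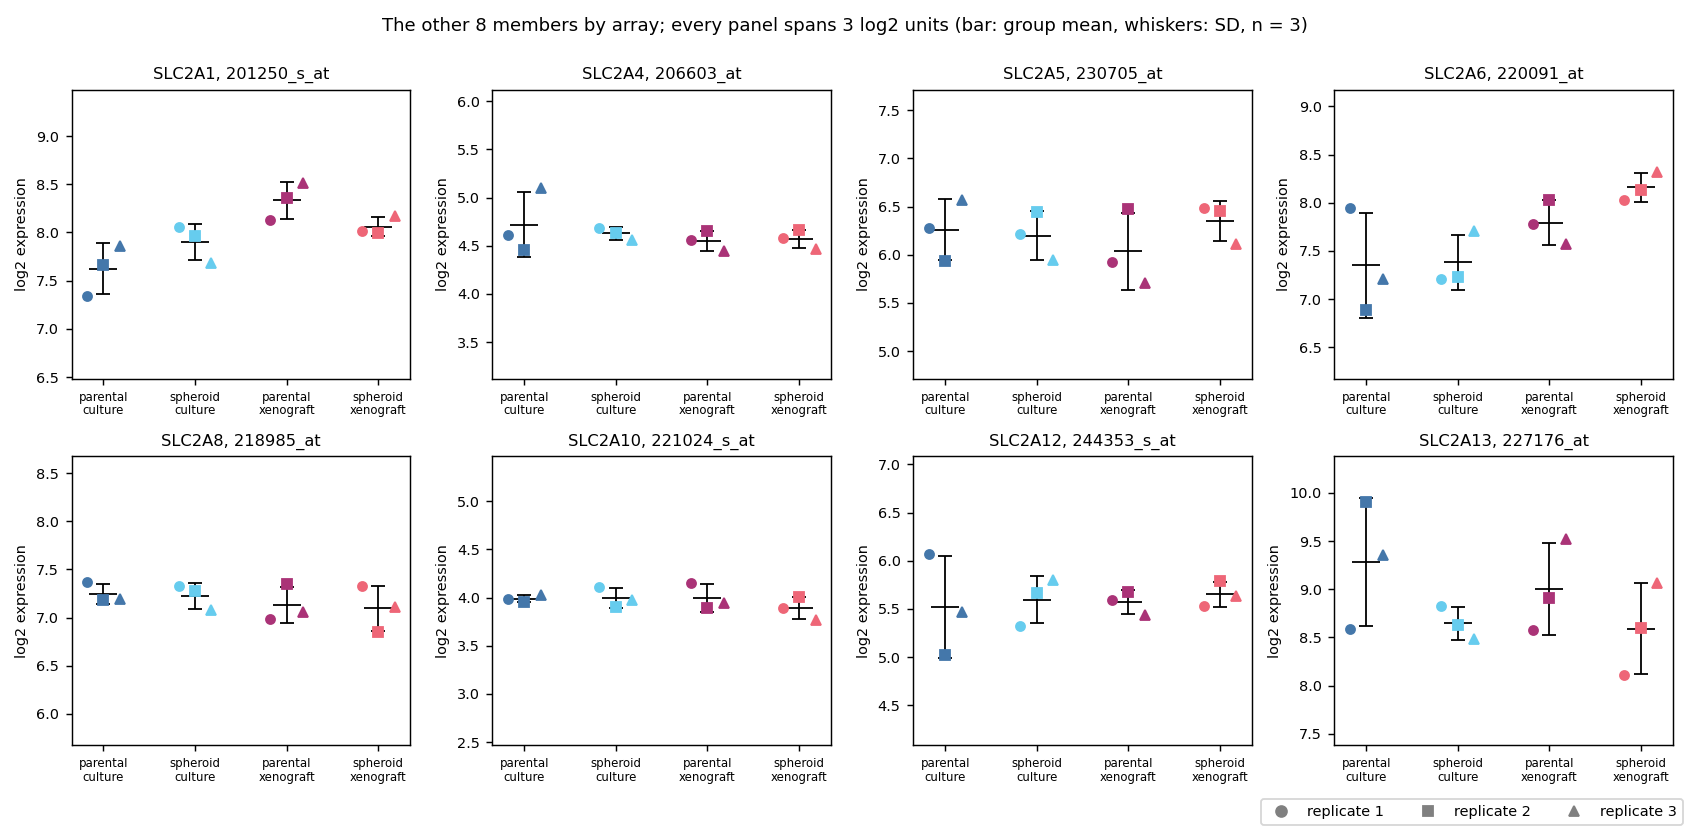
Log2 expression of the 8 tested members on each array by group, with the probe set that stands for each gene; bars mark group means, whiskers the SD (n = 3), and every panel spans the same range. SLC2A1 is highest in parental xenografts, 8.34, SLC2A6 in spheroid xenografts, 8.16, and SLC2A4 and SLC2A10 stay near 4 to 5 in all groups.

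The counts of calls among the 8 tested members are given here beside the shares of all genes. In limma's fit over all genes, 0 of 8 passed for spheroid against parental cells in culture, where 2.46% of all genes did, and 0 of 8 in xenografts, where 0.233% did. From culture to xenograft 1 of 8 passed in parental cells, against 3.47% of all genes (2.00% higher and 1.48% lower), and 0 of 8 in spheroid cells, against 0.0202%. For the difference of differences 0 of 8 passed, against 0.137%. At an unadjusted p under 0.05 the counts were 0, 0, 1, 1 and 1, in the same order, where 14.0%, 7.34%, 14.3%, 7.39% and 7.41% of all genes reached it. Same-numbered arrays also deviated together between the xenograft groups (r = 0.18 to 0.48), as did parental replicate 2 and spheroid replicate 1 (0.26). With the block on these 6 arrays 0 of 8 members passed, against 2.48% of all genes. With 8 genes, counts of 0 or 1 are too small to set against these backgrounds, and they are not results about the family.

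The median difference of the 8 members was -0.0071 in culture and -0.010 in xenografts for spheroid against parental cells, beside 0.070 and 0.019 over all genes. From culture to xenograft it was -0.055 in parental and -0.00062 in spheroid cells, beside -0.0091 and -0.047. Groups that did not overlap were found for 0, 0, 1 and 1 of the 8 members in these 4 comparisons, where 13.8%, 16.5%, 13.6% and 18.7% of all genes had them. SLC2A1 and SLC2A6 were these members. Among the 18 probe sets of the tested members, 1 passed in parental cells from culture to xenograft, where 2.34% of all probe sets did. None passed in the others, where 1.23% (culture), 0.0897% (xenografts), 0.253% (spheroid cells) and 0.0732% (difference of differences) of probe sets did. The SE of a member's difference was 0.13 to 0.34.

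**Figure D4:**
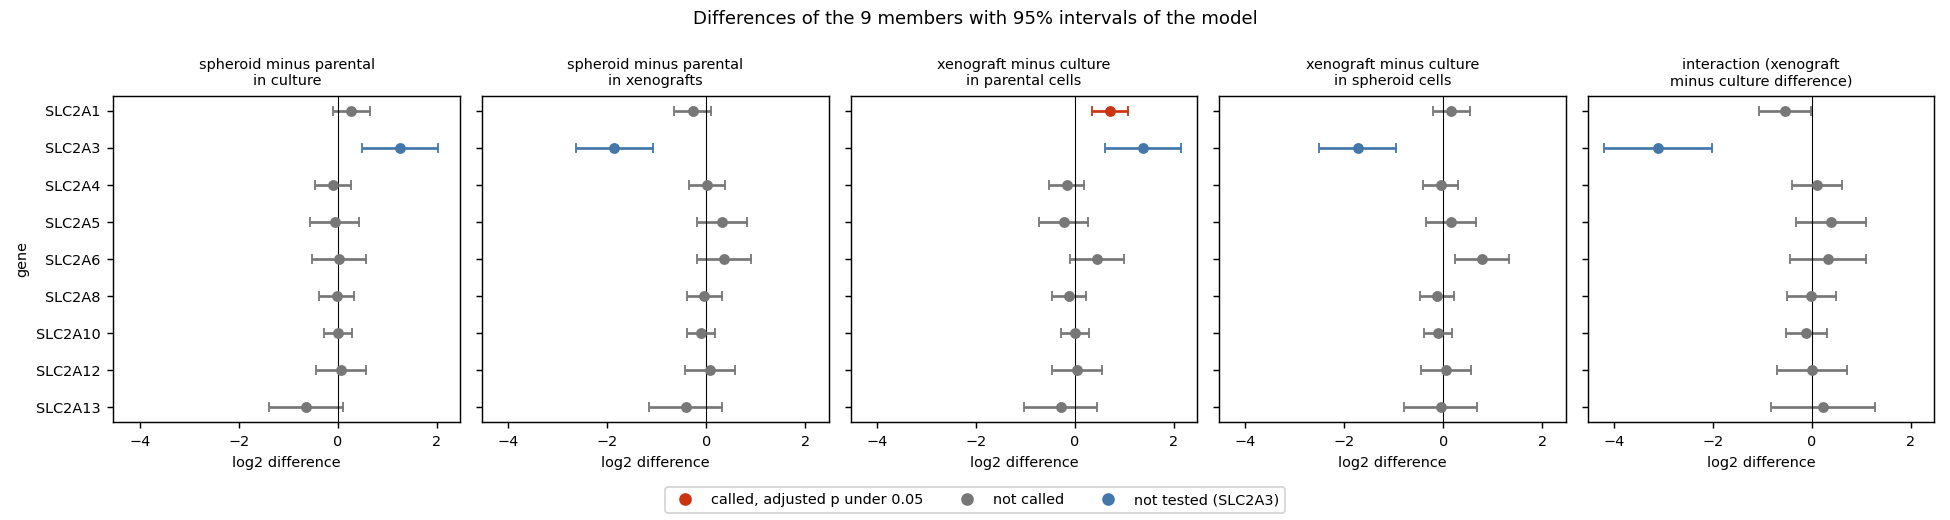
Log2 differences of the 9 members (rows) in the 5 comparisons (panels), with 95% intervals of the model. Red marks a called value, grey an uncalled one and blue SLC2A3, which was not tested. SLC2A3 was chosen by its spheroid to parental differences, so its intervals are descriptions and cannot serve as a test of any difference. SLC2A3 lies at 1.26 in culture and -1.86 in xenografts, and the only red point is SLC2A1 in parental cells, at 0.71.

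Other genes of sugar transport were taken in 7 lists, which held 73 genes with 62 on the arrays. In parental cells from culture to xenograft 3 rose and 1 fell, against the same backgrounds as above. In the other comparisons 0 of 62 passed, with 13 genes at an unadjusted limma p under 0.05 for spheroid against parental cells in culture, 8 in xenografts, 6 from culture to xenograft in spheroid cells and 4 for the difference of differences, and 12 where the 4 passed. The shares of all genes at that level are those given above. With the replicate block on only the 6 arrays compared, 3 listed genes passed between xenografts and 6 from culture to xenograft in spheroid cells, against the 2.48% and 2.99% of all genes given above. The 3 were EMB, ARRDC3 and SLC2A11, and the 6 were SLC5A3, TBC1D4, EPAS1 and MLXIP (higher) and ARRDC3 and ARRDC4 (lower), of which ARRDC3 and ARRDC4 are arrestin-like relatives of TXNIP and EPAS1 is a hypoxia-inducible factor. With 1 array left out, the 4 calls in parental cells became 10 without parental culture replicate 2, 2 without spheroid xenograft replicate 1 or 2, 1 without parental culture replicate 3 or parental xenograft replicate 1 or 3, and 0 without parental xenograft replicate 2. Over all genes the 687 calls became 1591 without parental culture replicate 2 and 247 without parental xenograft replicate 2.

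Of 6 sodium-coupled sugar and inositol carriers, SLC5A3 (SMIT1, which takes up myo-inositol against its gradient) rose in parental tumours. It read 9.29, 8.82 and 8.34 in parental culture and 10.79, 10.07 and 9.85 in parental xenografts, a difference of 1.42 (SE 0.32, limma adjusted p = 0.0317). In spheroid cells its difference was 1.09 (limma adjusted p = 0.308, and 0.0210 with the block on the 6 arrays). Among 4 genes of inositol synthesis and breakdown none passed, and ISYNA1, which makes inositol phosphate from glucose 6-phosphate, had the lowest p for spheroid against parental culture, with 0.68 (limma adjusted p = 0.142).

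The list for lactate and pyruvate had 6 genes that were read, and its carriers SLC16A1 and SLC16A3 were not among them. Of these 6 genes LDHA (lactate dehydrogenase A, which makes lactate from pyruvate) rose by 1.03 in parental tumours (SE 0.22, limma adjusted p = 0.0271). It read 12.46, 13.19 and 13.53 in parental culture and 14.08, 14.16 and 14.03 in parental xenografts. EMB (embigin, a chaperone of lactate carriers) had the largest difference of any listed gene, -3.33 for spheroid against parental xenografts, just outside the threshold (limma adjusted p = 0.0571, and 0.0227 with the block). Its arrays read 10.90, 9.34 and 8.91 in parental and 7.12, 5.03 and 7.02 in spheroid xenografts.

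The list of glucose and fructose capture and polyol steps had 11 genes that were read, and its polyol genes AKR1B1 and SORD were not among them. It also took in genes of glucose release, such as G6PC1. Of these 11 genes SLC37A4, the glucose 6-phosphate carrier of the endoplasmic reticulum, fell by 0.74 in parental tumours (SE 0.18, limma adjusted p = 0.0473). HK2, a hexokinase, differed by 0.76 between spheroid and parental culture (limma adjusted p = 0.149). Of 14 regulators EGLN1, an oxygen sensor that marks hypoxia-inducible factors for breakdown, rose by 1.00 in parental tumours (SE 0.22, limma adjusted p = 0.0322), from 9.74, 10.08 and 9.32 to 10.52, 10.77 and 10.87. SLC37A4 lost its call in 10 of the 12 settings that leave out 1 array, EGLN1 in 7, SLC5A3 in 4 and LDHA in 3. None of the 4 was called when only the 6 parental arrays were fitted, with or without the block. SLC5A3 also lost its call under 3 of the 4 other normalisations and with the mean of its probe sets, and its difference in that last setting was 0.79. SLC37A4 also lost its call with the mean of its probe sets, among genes above the median and with a trended robust prior. EGLN1 also lost its call under median centring and with the replicate block on all arrays.

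The list of transporter trafficking, with 18 genes on the arrays, had the highest median in parental tumours, 0.33 beside -0.0091 for all genes, with 0 of 18 called. RHOQ, a GTPase of the insulin response, came nearest with 0.70 (limma adjusted p = 0.0560). For spheroid against parental culture the list's median was 0.31 beside 0.070 for all genes, also with 0 of 18 called. Both of these comparisons subtract parental culture. In spheroid cells the list's median was 0.054 and the lowest p belonged to TBC1D4, a brake on GLUT4 movement, with 0.94 (limma adjusted p = 0.162, and 0.0183 with the block). TBC1D5, which acts in endosomal sorting, differed by 0.66 between spheroid and parental culture (limma adjusted p = 0.101), and RAB8A by 0.52 between the xenografts (limma adjusted p = 0.165). Of the other SLC2A genes, SLC2A2 was dim on all 12 arrays, and neither SLC2A9 nor SLC2A11 passed in any comparison of the fit without the block. SLC2A11 had the larger difference, 0.80 between xenografts (limma adjusted p = 0.565, and 0.0376 with the block).

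**Figure D5:**
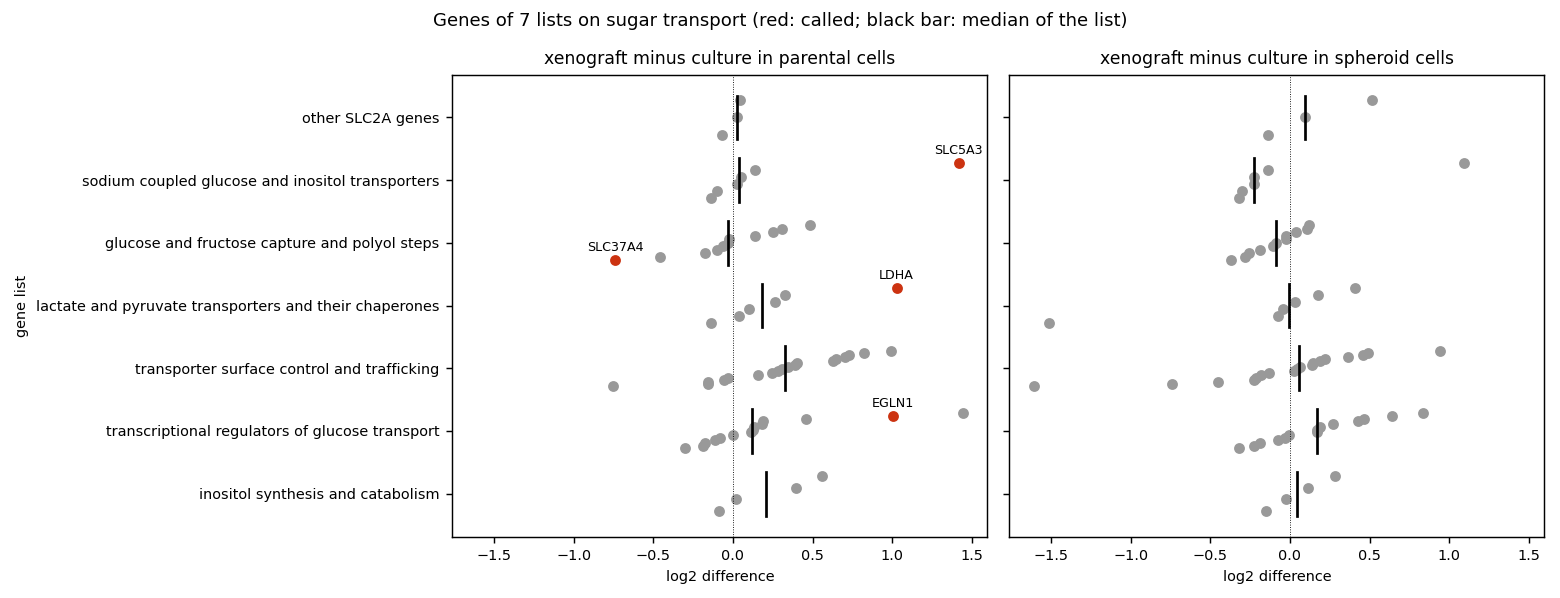
Log2 differences from culture to xenograft of 62 genes in 7 lists on sugar transport, in parental cells (left) and spheroid cells (right); each point is a gene, red marks a called gene and black bars the list medians. SLC5A3 at 1.42, LDHA at 1.03, EGLN1 at 1.00 and SLC37A4 at -0.74 are the only red points, all in parental cells.

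The genes whose levels followed SLC2A3 most closely over the 12 arrays, by Pearson correlation among 18861 genes, were CLDN16 (r = 0.89), MTMR11 (0.89), UBE2C (0.86), CENPV (0.86) and PDE6D (0.85). For SLC2A1 they were TPI1, the glycolytic enzyme triosephosphate isomerase (r = 0.92), LPCAT3 (0.92), DSTNP2 (0.91), RRN3P2 (0.91) and ANO6 (0.91). The 12 points share 4 groups and the spread of their arrays, and these values are descriptions. SLC2A3 itself correlated with the other members between -0.41 for SLC2A6 and 0.44 for SLC2A10, with 0.37 for SLC2A1.

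Some genes of the fibroblast list, and the keratins KRT8 and KRT18 of the line, differed in the comparison that carried the SLC2A1 call. Of 10 fibroblast markers, 3 were higher in parental xenografts than in parental culture by limma's fit, where 2.00% of all genes were called higher. They were COL3A1 (5.23 to 7.29 in group means), FAP (5.07 to 7.27) and POSTN (4.04 to 4.88, dim on 10 of 12 arrays). The brightest of the list, COL1A1 (8.17 to 8.62) and DCN (6.80 to 6.96), were not called. Whether these signals came from cells of the line or from other cells was not tested. The mean level of the 10 genes per array was 5.52 to 5.92 in parental culture, 5.84 to 5.98 in spheroid culture, 6.05 to 6.61 in parental xenografts and 6.06 to 6.13 in spheroid xenografts. FAP was also called lower in spheroid than in parental xenografts (5.92 against 7.27 in group means), where 0.233% of all genes were called. Its mean in spheroid culture was 5.66. KRT8 and KRT18 were lower in parental xenografts than in parental culture, and KRT8 in spheroid than in parental culture. None of the genes on the other 8 marker lists (erythroid, adipocyte, skeletal muscle, myeloid, lymphocyte, endothelial, keratinocyte and lung lineage) passed in any comparison of the fit without the block. For the erythroid list, of interest because red cells are rich in GLUT1, 6 of 12 genes were read, and their mean per array was 5.83 to 6.45 in parental culture and 5.95 to 6.49 in parental xenografts. HBB, a hemoglobin chain, had group means of 6.92 and 7.78 in parental cells (culture, then xenografts) and 6.94 and 7.46 in spheroid cells, a difference of 0.86 in parental cells that was not called (limma adjusted p = 0.170). The part of other cells in the SLC2A1 and SLC2A3 values was not tested.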

How the data were processed

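Total RNA (2 µg per sample) was labelled with biotin and read on 12 arrays. The authors deposited 1 log2 value per probe set and array, made with RMA in affy, per the submitters' processing notes. The sources used here state neither versions nor whether normalisation was joint. Background correction and summarisation of this kind compress differences of dim probe sets. Arrays give no read depth, so their number limits the precision.

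The platform annotation gave 1 symbol to 41097 probe sets, several to 1801 and none to 11777, after symbols were updated by gene number for 41043. Each of 19775 genes was represented by its single-symbol probe set with the highest mean, with no filter on dim values. 62 control probe sets were left out of the fit over probe sets. Using R 4.3.3 and limma 3.58.1, 1 mean per group was fitted to all 12 arrays (8 residual degrees of freedom) with lmFit and eBayes, two-sided, with Benjamini-Hochberg adjustment over all genes or all probe sets of a comparison and a threshold of 0.05. The script was tested on simulated data. An exact permutation test of 3 against 3 arrays cannot go below p = 0.1. Levels are means ± SD, differences have the SE of the fit.

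The members and the lists were chosen with earlier results of these data known, so no list count is independent evidence. All 9 members are named, and from each list the called genes (at most 4 per comparison) or else the gene with the lowest p, of which the text gives some. The 5 genes most correlated with SLC2A3 and SLC2A1 leave out SLC2A genes and the symbol prefixes LOC, FAM and KIAA and symbols with orf. The rule's 2 brightest markers of each cell type list were not all printed. COL3A1, FAP, POSTN, KRT8, KRT18, VIM and EPCAM were named after their values were seen. Replicate numbers are shared between groups, so the correlation of deviations from group means was checked for same-numbered arrays. It was above 0.1 for all 3 pairs of spheroid culture and spheroid xenografts and of the xenograft groups. The same held for 2 of 3 pairs of spheroid culture and parental xenografts, and 1 of 3 where parental culture was compared. Arrays with different numbers also correlated, up to 0.64 for parental culture replicate 2 and spheroid xenograft replicate 3. Of 12 arrays, 8 correlated most, on average, with arrays of their own number in the other groups. The labels state no pairing and these values do not establish one. For spheroid cells and for the xenograft groups the replicate block is given only as an alternative beside the main fit, where it changes a call. Alternatives covered normalisation, probe set choice, dim genes, samples fitted, the replicate number as a block, array spread as a covariate and leaving out each array.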

Additional observations from a re-analysis of the deposited data

Results flagged for a closer look

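The spheroid to parental difference of SLC2A3 ran in opposite directions in the 2 settings. On 202497_x_at every spheroid culture array lay above every parental culture array, and every spheroid xenograft array lay below every parental xenograft array. The culture groups overlapped on 202498_s_at and 202499_s_at, and on 222088_s_at, which is shared with SLC2A14. Groups that did not overlap were found for 13.8% of all genes in culture and 16.5% in xenografts. The xenograft difference minus the culture difference was -3.12 on the log2 scale. This difference was not tested, because it is the value for which the gene was picked.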

How the results depend on the processing

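The count of tested members called from culture to xenograft in parental cells, 1 (SLC2A1), went to 0 under median centring, with the mean of all probe sets, on leaving out probe sets named _x_at or _s_at, with only the groups compared, with the replicate block (fitted to all arrays or to only the groups compared) and with a trended robust prior. With 1 array left out it ran from 0 to 1. Without those probe sets SLC2A1 was read by the dim 201249_at alone and its difference was -0.077 (limma adjusted p = 0.969). Among probe sets the same count, 1, went to 0 after quantile normalisation again, median centring, the replicate block, the trended robust prior and among genes above the median, where 6 probe sets were tested, and ran from 0 to 1 with 1 array left out. In spheroid cells the count went from 0 to 1 (SLC2A6, limma adjusted p = 0.0223) with the replicate block on only the groups compared. Listed genes called in parental cells, 4, went to 2 under median centring, with the mean of all probe sets and on leaving out probe sets named _x_at or _s_at, to 0 with only the groups compared and with the replicate block on them, to 9 with quantile normalisation within culture and within xenografts and to 8 with array spread as a covariate. Calls over all 19775 genes in parental cells moved too. From 687 they went to 460 under median centring, 645 with the mean, 69 with only the groups compared and 68 with the block on them. They rose to 1278 with that quantile normalisation and 1901 with array spread. Listed genes called in spheroid against parental culture, 0, went to 3 under either quantile normalisation, 1 under cyclic loess and 8 with array spread. Over all genes the calls there went from 487 to 1098 and 1067, 971 and 1750, in the same order. Between xenografts 0 went to 1 among genes above the median and with only the groups compared, and to 3 with the replicate block on them and with array spread. Calls over all genes fitted went from 46 to 55, 161, 491 and 290, in the same order. In spheroid cells 0 went to 6 with that block and 1 with array spread, where calls over all genes went from 4 to 591 and 204. The difference of differences went from 0 to 2 with array spread, and over all genes from 27 to 355. With 1 array left out the listed counts ran from 0 to 3 in culture, 0 to 2 between xenografts, 0 to 10 in parental cells, 0 to 0 in spheroid cells and 0 to 1 for the difference of differences. For the lists, the alternatives other than median centring, the mean of probe sets, genes above the median and the block on all arrays were chosen after seeing the data. Of 336 counts 273 stayed within 1.5 times. Of 924 values of the tested members, 907 kept their side of the threshold, 15 (all SLC2A1 in parental cells) lost a call, 1 gained one and 1 reversed, and 69 uncalled values changed sign. The SLC2A3 difference ran from 0.91 to 1.60 in culture and from -2.18 to -1.63 in xenografts. The gene was chosen by the direction of these differences, so their unchanged sign is no support for it. The setting without _x_at and _s_at probe sets gave SLC2A3 no value.

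Between groups that include parental culture, same-numbered arrays share only a number, with 1 of 3 pairs above r = 0.1 in each. The block on all 12 arrays left 0 tested members called in every comparison. Over all genes, calls ran widely: 15 to 1750 around 487 for spheroid against parental culture, 20 to 491 around 46 in xenografts, 68 to 1901 around 687 in parental cells, 3 to 591 around 4 in spheroid cells and 8 to 355 around 27 for the difference of differences. The highest came with array spread as a covariate or the replicate block on only the groups compared. With 1 array left out they ran from 77 to 853, 4 to 140, 247 to 1591, 1 to 57 and 2 to 186. Dim probe sets, such as those of SLC2A4 and SLC2A10, limit what could be seen.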
